A study of Arabidopsis thaliana with 8 samples.

Results

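The Aux/IAA repressors and the auxin response factors (ARFs) are the protein families that turn the plant hormone auxin into changes in transcription. Their genes were taken by locus identifier from a table of read counts for Arabidopsis thaliana roots: 29 Aux/IAA genes (IAA1 to IAA20 and IAA26 to IAA34) and 15 ARF genes (ARF1 to ARF11 and ARF16 to ARF19), 44 of the 33602 genes in the table. The plants were wild-type Col-0 seedlings, 14 days old, grown on plates with the solvent dimethyl sulfoxide (DMSO) and moved for 4 h either to fresh solvent plates or to plates with 10 µM mebendazole (MBZ), a benzimidazole used against parasitic worms, whose tubulin it binds. RNA was taken from roots, with 4 libraries from the DMSO group and 4 from the MBZ group, and every library carried the same genotype and the same solvent. The labels do not say whether the 4 libraries of a group came from separate plates or plants, so p-values measure the spread between these libraries, which may be technical. The drug assignment rests on the sample titles, because the column names of the MBZ libraries hold the word DMSO and not MBZ.

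As background, auxin acts as a glue between TIR1/AFB F-box proteins and Aux/IAA proteins. The Aux/IAA protein is then tagged with ubiquitin and destroyed, which frees the ARF it was holding at the promoter. Many Aux/IAA genes are themselves ARF targets, so that auxin raises the transcripts of its own repressors while it removes the proteins. In roots this circuit is known for setting lateral root initiation, meristem size, root hair growth and gravitropism. Transcript levels in the table measure only the RNA side of the circuit: repressor protein, which auxin removes, was not measured.

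Total counts per library ran from 38042437 to 54818801, so that 3 counts corresponded to 0.0551 to 0.0786 CPM (counts scaled to the library total). All 12 root markers examined were detected, with 6 higher and 6 lower in MBZ. Their sum went from a mean of 14439 CPM in DMSO to 9065 CPM in MBZ, a ratio of 0.628. Most of that sum was PYK10, which went from 13995 to 8570 CPM. The 10 markers of green shoot tissue were summed at 244 to 258 CPM in DMSO and 164 to 168 CPM in MBZ, none of them at 0. The ratio of the green sums was 0.659. The root ratio mostly follows PYK10, so setting these ratios side by side does not compare root with green tissue. The median log2 fold change was 0.09 for the root markers and -0.73 for the green markers. All 12 root markers and 9 of the 10 green markers passed the threshold given below, beside 66.5% of all genes tested. Those 9 green markers were lower and none was higher, beside 33.6% of all genes lower and 32.9% higher. Green log2 fold changes ran from -6.25 (LHCB1.1, at 1 to 4 counts in the MBZ libraries) to -0.05 (RCA, which did not pass). These marker differences run alongside every comparison below, and their part in them was not tested. In such bulk roots, fewer cells of a type and less RNA per cell cannot be told apart.

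Aux/IAA transcripts were mostly higher after MBZ, led by IAA5, IAA1 and IAA28, while ARF transcripts went both ways with ARF19 the furthest from 0. Over all 20867 genes tested, 66.5% passed the threshold (edgeR quasi-likelihood test, Benjamini-Hochberg adjusted p under 0.05), with 32.9% of genes higher and 33.6% lower in MBZ. Among the Aux/IAA genes, 27 of 29 were abundant enough to be tested and 25 passed, 21 higher and 4 lower. Among the ARF genes all 15 were tested and 13 passed, 8 higher and 5 lower. The 4 libraries of each group did not overlap in CPM for 22 Aux/IAA and 13 ARF genes, beside 59.0% of all genes tested. The median log2 fold change was 0.47 for the tested Aux/IAA genes and 0.15 for the ARF genes, beside 0.00027 for all genes tested. These counts and medians cover tested members only. IAA34 reached the count filter through the MBZ libraries alone (at least 0.213 CPM in 4 MBZ and 0 DMSO libraries), so its direction was set by the filter. It is among the 25 Aux/IAA genes that passed, the 21 higher genes, the 22 without overlap and the 6 genes with a 2-fold change. The Aux/IAA median of 0.47 includes it as well. A change of at least 2-fold, seen in 7.79% of all genes, was seen in 6 Aux/IAA genes, all of them higher (3.89% of all genes were higher by that much and 3.90% lower), and in no ARF gene. When the test was set against a 1.5-fold change, 12.3% of all genes passed (5.96% higher and 6.33% lower). Then 7 Aux/IAA genes remained, with IAA1, IAA2, IAA5, IAA6, IAA7 and IAA28 higher and IAA3 lower, and ARF19 alone remained among the ARF genes, higher.

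**Figure D1:**
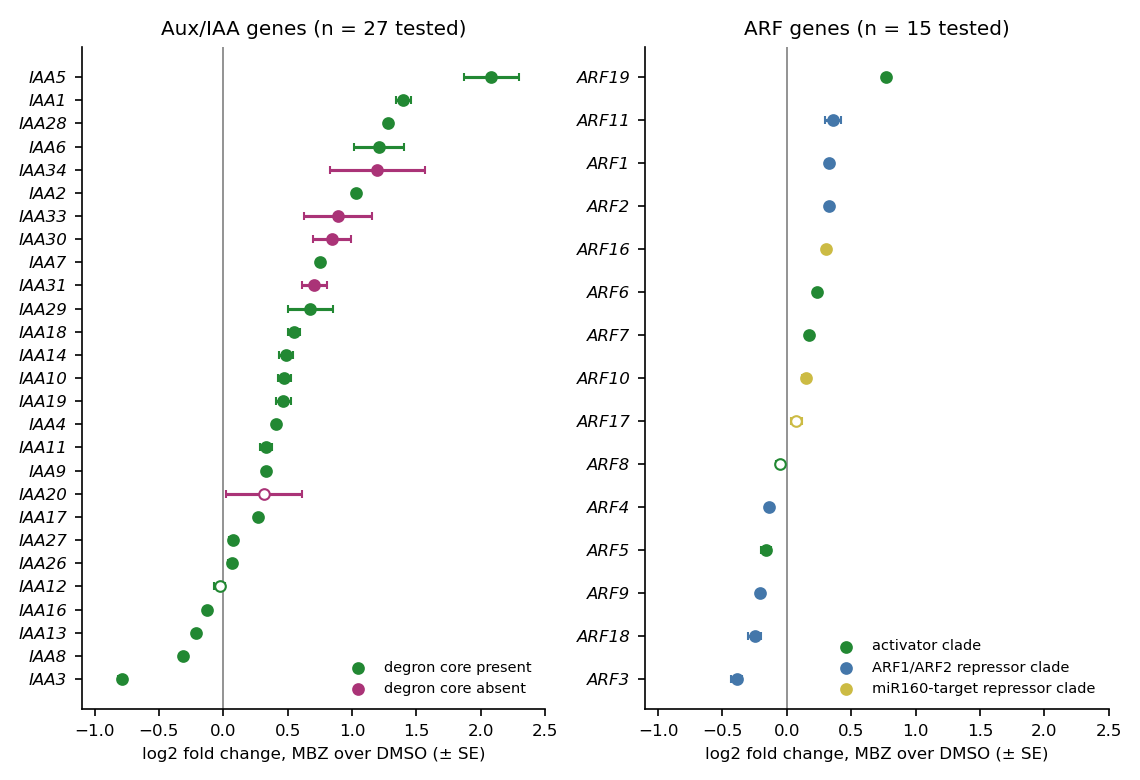
Log2 fold change (MBZ over DMSO, x axis) of each tested Aux/IAA and ARF gene (y axis), with bars of 1 standard error from the edgeR fit on 4 libraries a group. Filled points passed the threshold and open points did not, and colours give the degron class or ARF clade. Most Aux/IAA points lie right of 0, up to 2.08 for IAA5, while the ARF points lie between -0.39 for ARF3 and 0.77 for ARF19.

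Read per length, the Aux/IAA transcript pool rested on a few members. RPKM values (reads scaled to gene length and library total) were available for 20 of the 29 genes, and their sum went from 1271 ± 6.37 in DMSO to 1589 ± 6.02 in MBZ (SD, n = 4 each), a ratio of 1.25. IAA9 held 23.6% of that sum in DMSO and 23.4% in MBZ. IAA16 held 22.9% and then 16.6%. IAA28 went from 6.82% to 13.1%, moving from rank 5 to rank 3, and IAA2 from 7.40% to 11.96%. In absolute terms the 15 members that were higher added 383.7 RPKM in all, and the sum of the 5 that were lower fell by 65.9 RPKM. Of the added amount, 75.5% lay in IAA28 (31.7%), IAA9 (18.8%) and IAA2. Of that fall, IAA16 made up 41.7%, IAA3 24.6% and IAA8 23.7%. The 15 ARF genes summed to 284.2 ± 3.56 RPKM in DMSO and 320.1 ± 2.97 in MBZ, a ratio of 1.13. ARF2 held 26.6% of that sum and then 29.3%, ARF19 went from 4.58% (rank 9) to 6.85% (rank 6), and ARF9 went from 8.54% (rank 3) to 6.50% (rank 7). These shares are a description and carry no test.

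**Figure D2:**
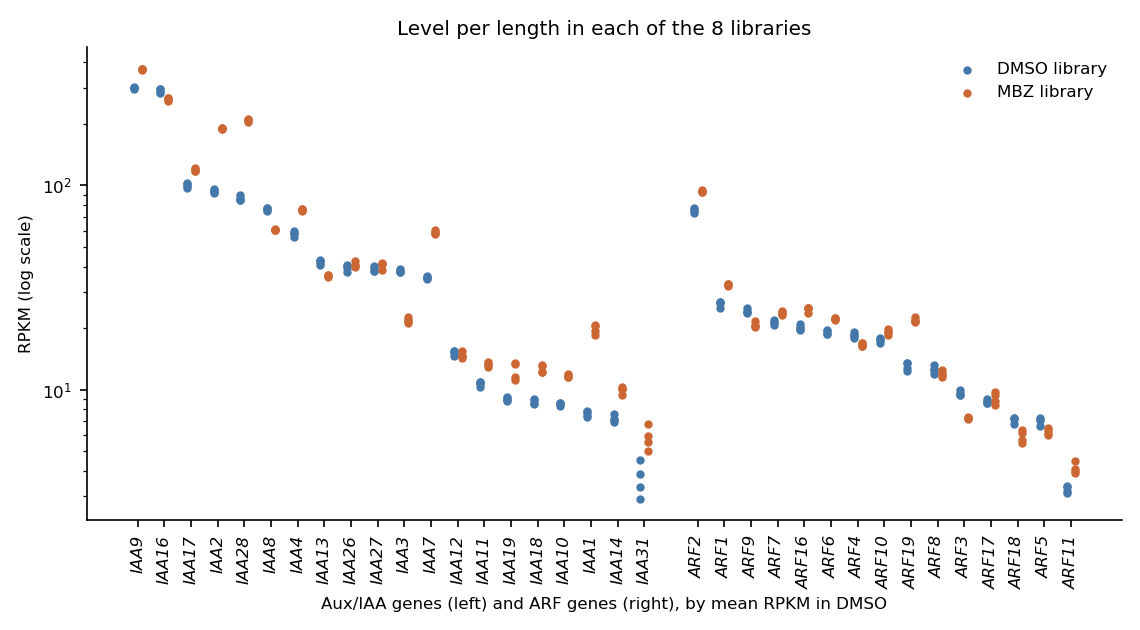
RPKM (log axis) of the 20 Aux/IAA genes and 15 ARF genes that have an RPKM value, in each library (points, 4 per group), ordered by their mean in DMSO. IAA28 goes from a mean of 86.7 to 208 RPKM with no overlap between the groups, while IAA16 goes from 291 to 264 RPKM.

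IAA1, IAA2, IAA3 and IAA4 are closely related Aux/IAA proteins. IAA1 (AT4G14560), a member long used as a quick marker of auxin response, had 6.53, 6.19, 6.05 and 6.42 CPM in the DMSO libraries and 17.1, 15.5, 17.3 and 16.2 CPM in the MBZ libraries. All 4 MBZ libraries lay above all 4 DMSO libraries, and IAA1 was 2.63-fold higher (log2 fold change 1.40 ± 0.06 SE, adjusted p = 1.05e-38). IAA2 (AT3G23030), whose promoter is used in auxin reporter lines, had 85.2, 89.5, 88.4 and 86.9 CPM in the DMSO libraries and 179, 179, 178 and 179 CPM in the MBZ libraries. The groups were far apart, and IAA2 was 2.04-fold higher (log2 fold change 1.03 ± 0.02 SE, adjusted p = 1.43e-64). IAA3 (AT1G04240), also known as SHY2, restrains division in the root meristem downstream of cytokinin and went the other way: it had 44.2, 44.2, 45.1 and 43.98 CPM in the DMSO libraries and 24.9, 25.5, 26.7 and 25.99 CPM in the MBZ libraries. Every MBZ library was below every DMSO library and IAA3 was 1.72-fold lower (log2 fold change -0.79 ± 0.03 SE, adjusted p = 1.22e-38). IAA4, the nearest relative of IAA3, rose from 67.0 ± 1.98 to 88.9 ± 0.840 CPM (log2 fold change 0.41 ± 0.02 SE, adjusted p = 1.43e-28). In the reference, 33.8% of the 50-base words of IAA3 are shared with AT1G04230, a gene on the opposite strand, and the strand setting of the counting is not given in the sources used here. AT1G04230 itself had 14.3 ± 0.909 CPM in DMSO and 15.3 ± 0.730 CPM in MBZ (adjusted p = 0.0849).

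IAA5, IAA6 and IAA19 are another group of related members, of which IAA19 (MSG2) acts with ARF7 in differential growth of the hypocotyl. IAA5 (AT1G15580), described here after its values were seen because its mean level over all libraries is under 1 CPM, had 22, 9, 16 and 22 counts in the DMSO libraries and 74, 65, 75 and 62 counts in the MBZ libraries. No MBZ library was as low as any DMSO library. The difference was the largest fitted for either family, 4.23-fold (log2 fold change 2.08 ± 0.21 SE, adjusted p = 6.18e-15). AT1G15570, a gene that overlaps IAA5 in the annotation, went the other way (log2 fold change -0.45). IAA6 (AT1G52830) had 45, 42, 19 and 18 counts in DMSO and 83, 46, 73 and 68 in MBZ, which were 0.886, 0.848, 0.351 and 0.472 CPM in the DMSO libraries and 1.52, 1.09, 1.64 and 1.72 CPM in the MBZ libraries. The groups did not overlap, although DMSO replicate 1 and MBZ replicate 2 were close, and IAA6 was 2.32-fold higher (log2 fold change 1.21 ± 0.19 SE, adjusted p = 5.33e-08). IAA19 rose from 8.65 ± 0.188 to 12.01 ± 1.16 CPM (log2 fold change 0.47 ± 0.06 SE, adjusted p = 6.64e-11).

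ARFs bind auxin response elements, of which TGTCTC is the classic form and TGTCGG the form bound most strongly in protein binding assays. The 250 bases before the annotated start of 4 of these genes are shown because their members rose by different amounts and differ in these letters (RefSeq, build TAIR10.1). Capitals mark TGTCTC or TGTCGG on either strand, read 5′ to 3′ on the strand of the gene.
IAA1: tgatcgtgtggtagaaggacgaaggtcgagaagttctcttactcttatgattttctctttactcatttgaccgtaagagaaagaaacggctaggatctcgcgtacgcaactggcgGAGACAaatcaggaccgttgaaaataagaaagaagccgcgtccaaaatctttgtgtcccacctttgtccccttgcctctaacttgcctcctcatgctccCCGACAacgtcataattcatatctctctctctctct
IAA5: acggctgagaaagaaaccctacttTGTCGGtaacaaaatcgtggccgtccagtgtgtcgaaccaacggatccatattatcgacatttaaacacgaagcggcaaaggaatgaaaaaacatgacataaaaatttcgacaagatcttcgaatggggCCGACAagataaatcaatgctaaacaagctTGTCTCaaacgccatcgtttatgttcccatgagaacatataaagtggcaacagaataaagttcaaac
IAA19: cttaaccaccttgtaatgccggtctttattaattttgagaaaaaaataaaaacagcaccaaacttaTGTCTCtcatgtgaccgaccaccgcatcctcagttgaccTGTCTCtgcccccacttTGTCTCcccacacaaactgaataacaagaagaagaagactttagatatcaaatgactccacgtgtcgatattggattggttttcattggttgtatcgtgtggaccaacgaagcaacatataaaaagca
IAA28: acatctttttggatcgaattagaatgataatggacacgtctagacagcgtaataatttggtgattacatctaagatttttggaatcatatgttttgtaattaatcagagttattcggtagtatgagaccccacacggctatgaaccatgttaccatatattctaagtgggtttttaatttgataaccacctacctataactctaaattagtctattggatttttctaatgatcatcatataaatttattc

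In those windows IAA1, at chr4:8360746-8360995 on the plus strand, held 1 TGTCTC and 1 TGTCGG. IAA5, at chr1:5366498-5366747 on the minus strand, held 1 TGTCTC and 2 TGTCGG, and IAA19, at chr3:5263751-5264000 on the plus strand, held 3 TGTCTC. IAA28, at chr5:9032954-9033203 on the plus strand, held none of either, and neither did IAA2 or IAA3. Members with these letters in the 250-base window went both ways. IAA1, IAA5 and IAA19 rose, while IAA8 (1 TGTCTC), IAA13 and IAA16 (1 TGTCGG each) fell. Members without these letters in the 250-base window include IAA2 and IAA28, which rose at least 2-fold, and IAA3, which fell. IAA2, IAA28 and IAA3 all hold them within 1000 bases: IAA2 1 TGTCTC, IAA28 1 TGTCTC and 1 TGTCGG, and IAA3 3 TGTCTC. Over both strands, TGTCTC was found in the 250-base window of 9 of 29 Aux/IAA genes and 1 of 15 ARF genes, beside 10.9% of 27444 promoters of protein-coding genes. TGTCGG was found in 6 of 29 Aux/IAA and 2 of 15 ARF windows, beside 4.16%. In 1000 bases TGTCTC was in 17 of 29 and 6 of 15, beside 39.6%, and TGTCGG in 8 of 29 and 5 of 15, beside 14.6%. The shorter core TGTCNN, which overlaps both motifs, was in 24 of 29 Aux/IAA and 13 of 15 ARF windows of 250 bases, beside 74.5%.

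IAA7, IAA14, IAA16 and IAA17 are root-active relatives in which stabilising mutations cause strong root phenotypes: IAA7 (AXR2) and IAA17 (AXR3) in gravitropism and IAA14 (SLR) in lateral root initiation. IAA7 (AT3G23050) had 44.9, 44.1, 43.6 and 43.6 CPM in the DMSO libraries and 76.0, 72.9, 74.2 and 73.8 CPM in the MBZ libraries. The groups did not overlap and IAA7 was 1.69-fold higher (log2 fold change 0.75 ± 0.03 SE, adjusted p = 1.08e-44). IAA14 rose from 10.6 ± 0.386 to 14.8 ± 0.603 CPM (log2 fold change 0.49 ± 0.05 SE, adjusted p = 7.78e-14) and IAA17 from 107 ± 2.74 to 129 ± 2.64 CPM (log2 fold change 0.27 ± 0.02 SE, adjusted p = 7.41e-21). IAA16 (AT3G04730), the second most abundant Aux/IAA transcript per length in DMSO, had 375, 364, 373 and 361 CPM in the DMSO libraries and 329.7, 342, 341 and 336 CPM in the MBZ libraries. It was lower in all 4 MBZ libraries (log2 fold change -0.13 ± 0.02 SE, adjusted p = 1.44e-11).

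IAA28 had the smallest adjusted p of both families. It represses lateral root initiation when its protein is stabilised, and in earlier work its transcript was not raised by added auxin, unlike most relatives. IAA28 (AT5G25890) had 73.6, 73.3, 77.2 and 75.1 CPM in the DMSO libraries and 179, 184, 182 and 182 CPM in the MBZ libraries. Each group was tight and they were far apart, so that IAA28 was 2.43-fold higher (log2 fold change 1.28 ± 0.02 SE, adjusted p = 3.9e-71), and in RPKM it went from 86.7 ± 2.21 to 208 ± 2.17. IAA18 (AT1G51950), which acts in embryonic and lateral root development, had 13.0, 13.1, 13.5 and 13.7 CPM in the DMSO libraries and 20.1, 18.7, 20.4 and 18.7 CPM in the MBZ libraries. It did not overlap between groups and was 1.47-fold higher (log2 fold change 0.55 ± 0.05 SE, adjusted p = 7.55e-19). Its relative IAA26 barely differed (log2 fold change 0.06, adjusted p = 0.0379, groups overlapping), and that call was lost in 11 of 19 alternatives, DESeq2 among them (adjusted p = 0.068, from 0.0182 to 1 over all of them).

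IAA8, IAA9 and IAA27 are long members with an extended amino-terminal part. IAA9 (AT5G65670), the most abundant Aux/IAA transcript per length in both groups, had 479.9, 489, 477 and 481 CPM in the DMSO libraries and 607, 598, 606 and 607 CPM in the MBZ libraries. It did not overlap between groups and was 1.25-fold higher (log2 fold change 0.33 ± 0.01 SE, adjusted p = 1.83e-37), from 300.0 ± 2.85 to 372 ± 2.58 RPKM. IAA8 went the other way, from 123 ± 2.11 to 99.1 ± 0.749 CPM (log2 fold change -0.31 ± 0.02 SE, adjusted p = 3.41e-25). IAA27 had a log2 fold change of 0.07 with overlapping groups (adjusted p = 0.0169), and the call was lost in 10 of 19 alternatives (adjusted p from 0.00217 to 1). IAA10, IAA11, IAA12 and IAA13 are the relatives of BODENLOS (IAA12), which holds back ARF5 in the embryonic root. IAA10 and IAA11 rose, by 0.47 and 0.33 on the log2 scale (adjusted p = 1.11e-13 and 4.34e-09). However, 22.8% of the 50-base words of IAA10 are shared with AT1G04105, an overlapping gene on the opposite strand, and the strand setting is not given. IAA13 fell by 0.21 (adjusted p = 2.05e-12), and IAA12 did not pass (-0.03, adjusted p = 0.559). IAA29 (AT4G32280), a light-regulated member in shoots, was rare, with 1.08, 0.686, 0.740 and 0.838 CPM in the DMSO libraries and 1.45, 1.18, 1.17 and 1.54 CPM in the MBZ libraries. It did not overlap between groups and was 1.598-fold higher (log2 fold change 0.68 ± 0.18 SE, adjusted p = 0.000505).

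Domain II of an Aux/IAA protein holds the degron that TIR1 reads, with the core amino acids glycine, tryptophan, proline and proline. The codons for that core, with any base allowed where the code is redundant, were found in frame in all 23 members classed as having a degron and in none of the other 6, IAA20 and IAA30 to IAA34. The stretches of 4 members that moved are shown with the core in capitals, since members that rose and fell carry the same core (RefSeq, TAIR10.1).
IAA1: atcgttGGATGGCCTCCAgtgaga
IAA3: attgttGGATGGCCACCAgttaga
IAA28: gtggtgGGATGGCCGCCGgtgaga
IAA7: gtggtgGGATGGCCACCTgtgagg

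They lie at chr4:8361439-8361462 (plus strand) for IAA1, chr1:1129022-1129045 (minus) for IAA3, chr5:9033815-9033838 (plus) for IAA28 and chr3:8195571-8195594 (plus) for IAA7. In the members with a degron, 21 of 22 tested passed, 17 higher and 4 lower, beside 66.5% of all genes called, 32.9% higher and 33.6% lower, and the median log2 fold change was 0.44. The 6 members without it are rare transcripts, and no count or median is given for them as a class. IAA30 (AT3G62100) had 0.945, 1.23, 1.147 and 0.995 CPM in the DMSO libraries and 2.17, 1.65, 1.80 and 2.15 CPM in the MBZ libraries. The groups did not overlap and IAA30 was 1.80-fold higher (log2 fold change 0.84 ± 0.15 SE, adjusted p = 6.13e-07). IAA31 (AT3G17600) had 2.42, 3.19, 2.74 and 3.75 CPM in the DMSO libraries and 4.96, 5.65, 4.63 and 4.197 CPM in the MBZ libraries. Its groups did not overlap either, and it was 1.63-fold higher (log2 fold change 0.71 ± 0.10 SE, adjusted p = 9.07e-10). IAA34 had 8, 8, 5 and 8 counts in DMSO and 19, 13, 11 and 20 counts in MBZ. Beyond the family counts its call is not used, since the filter let it in through MBZ, and 8.05% of its 50-base words are shared with AT1G15060, a gene on the same strand whose log2 fold change was -0.05. IAA33 passed (0.89 ± 0.26, SE, adjusted p = 0.00222) but its groups overlapped, with 17, 14, 29 and 14 counts in DMSO and 62, 30, 23 and 15 in MBZ. Without MBZ replicate 1 its log2 fold change was 0.48 and the adjusted p 0.149, in a range from 0.000306 to 0.301 over 15 alternatives. IAA20, a relative of IAA30, did not pass (0.32, adjusted p = 0.349). IAA32 and IAA15 had too few counts to test, IAA32 with 1 to 12 counts in a library and IAA15 with 0 or 1. For IAA32, 49.3% of the 50-base words are shared with AT2G01210, an overlapping gene on the opposite strand. How reads were divided between these genes is not known.

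The activator ARFs (ARF5, ARF6, ARF7, ARF8 and ARF19) carry the glutamine-rich middle region that switches genes on. Of the 5, 3 rose, 1 fell and 1 did not pass, which with so few genes is close to the 66.5% called over all genes. Their median log2 fold change was 0.17, and their summed RPKM was 73.0 in DMSO and 86.1 in MBZ. ARF19 (AT1G19220), which acts with ARF7 in lateral root formation, had 47.6, 49.0, 52.0 and 52.0 CPM in the DMSO libraries and 88.3, 83.3, 85.8 and 84.1 CPM in the MBZ libraries. All 4 MBZ libraries were above all 4 DMSO libraries and ARF19 was 1.71-fold higher (log2 fold change 0.77 ± 0.03 SE, adjusted p = 3.07e-45), from 13.0 ± 0.587 to 21.9 ± 0.572 RPKM. ARF7 itself had 92.3, 89.0, 90.3 and 94.6 CPM in the DMSO libraries and 105, 105, 102 and 100.4 CPM in the MBZ libraries and rose less (log2 fold change 0.17 ± 0.02 SE, adjusted p = 4.52e-11). ARF6 rose from 73.7 ± 1.64 to 86.8 ± 1.003 CPM (log2 fold change 0.24 ± 0.02 SE, adjusted p = 8.41e-16), ARF5, the MONOPTEROS factor of embryonic root and vascular patterning, fell by 0.16 on the log2 scale (adjusted p = 0.000253), and ARF8 did not pass (-0.05, adjusted p = 0.159). LBD16 and LBD29 are direct targets of ARF7 and ARF19 in lateral root formation, and LBD17, LBD18 and LBD33 belong to the same gene family. LBD16 rose by 0.48 and LBD33 by 0.77 (adjusted p = 5.06e-05). LBD33 had 1.32, 0.948, 0.777 and 0.576 CPM in the DMSO libraries and 1.40, 1.68, 1.48 and 1.80 CPM in the MBZ libraries. Its groups did not overlap, although replicate 1 of each group was close. LBD17 (AT2G42440) was 3.63-fold higher, with 0.689, 0.706, 0.795 and 0.707 CPM in the DMSO libraries and 2.72, 2.81, 2.54 and 2.503 CPM in the MBZ libraries (log2 fold change 1.86 ± 0.15, SE, adjusted p = 2.86e-20). In contrast, LBD18 fell by 0.35 (adjusted p = 0.00548) and LBD29 did not pass.

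The repressor clade around ARF1 and ARF2 (ARF1, ARF2, ARF3, ARF4, ARF9, ARF11 and ARF18) held members that rose and members that fell. All 7 passed, 3 higher and 4 lower, beside 66.5% of all genes called in nearly equal shares up and down, and their median log2 fold change was -0.13. ARF2 (AT5G62000), the most abundant ARF transcript per length, had 256, 266, 259.7 and 270.4 CPM in the DMSO libraries and 334, 329, 328 and 326 CPM in the MBZ libraries. The groups did not overlap and ARF2 was 1.25-fold higher (log2 fold change 0.33 ± 0.02 SE, adjusted p = 1.33e-32). ARF1 (AT1G59750) had 63.6, 67.3, 67.4 and 68.1 CPM in the DMSO libraries and 83.5, 84.3, 84.1 and 82.3 CPM in the MBZ libraries and likewise did not overlap, 1.26-fold higher (log2 fold change 0.33 ± 0.02 SE, adjusted p = 1.98e-22). ARF9 (AT4G23980) had 66.3, 67.2, 70.4 and 68.4 CPM in the DMSO libraries and 57.9, 58.8, 57.7 and 61.4 CPM in the MBZ libraries, lower in all 4 MBZ libraries (log2 fold change -0.21 ± 0.03 SE, adjusted p = 1.27e-11). ARF11 rose by 0.36 on the log2 scale (adjusted p = 3.66e-07), and ARF18, its closest relative here, fell by 0.25 (adjusted p = 4.97e-06). ARF3 (ETTIN) had 23.4, 22.0, 21.8 and 22.7 CPM in the DMSO libraries and 17.1, 17.1, 16.9 and 17.5 CPM in the MBZ libraries and was 1.31-fold lower (log2 fold change -0.39 ± 0.04 SE, adjusted p = 7.58e-14), and ARF4 had 55.04, 56.8, 58.5 and 57.3 CPM in the DMSO libraries and 52.8, 50.9, 52.4 and 51.0 CPM in the MBZ libraries, lower by a smaller amount (log2 fold change -0.13 ± 0.03 SE, adjusted p = 7.54e-06). Neither overlapped between groups.

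ARF2, ARF3 and ARF4 are cut by small RNAs from TAS3, a noncoding transcript started by miR390. The TAS3 sequence is shown because its transcript changed by over 2-fold, with the 21-base stretch that pairs best with these 3 ARFs and their sites (chr3:5862205-5862225, plus strand, TAIR10.1). Capitals in the sites mark bases that do not form a Watson-Crick pair. Which exact register the mature small RNA takes was not read from a file.
TAS3 21-base stretch: tttcttgaccttgtaagaccc
ARF2 site: gggtcttGcaaggtcaagaaT
ARF3 site 1: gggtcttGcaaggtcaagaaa
ARF3 site 2: AggtcttGcaaggtcaagaaa
ARF4 site 1: AggtcttGcaaggtcaagaaa
ARF4 site 2: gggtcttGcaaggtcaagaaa

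All of these sites are in coding sequence: ARF2 at chr5:24913262-24913282 (plus), ARF3 at chr2:14325941-14325961 and chr2:14325821-14325841 (minus) and ARF4 at chr5:24309717-24309737 and chr5:24309507-24309527 (minus). The TAS3 transcript (AT3G17185) had 20.2, 19.7, 20.8 and 19.5 CPM in the DMSO libraries and 8.70, 8.89, 9.22 and 9.05 CPM in the MBZ libraries. All 4 MBZ libraries were below all 4 DMSO libraries and the transcript was 2.24-fold lower (log2 fold change -1.16 ± 0.05, SE, adjusted p = 2.01e-37). In the same libraries ARF2 rose while ARF3 and ARF4 fell, so the 3 genes with the site did not move together. Small RNAs were not measured, and a link between the transcripts was not tested.

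**Figure D3:**
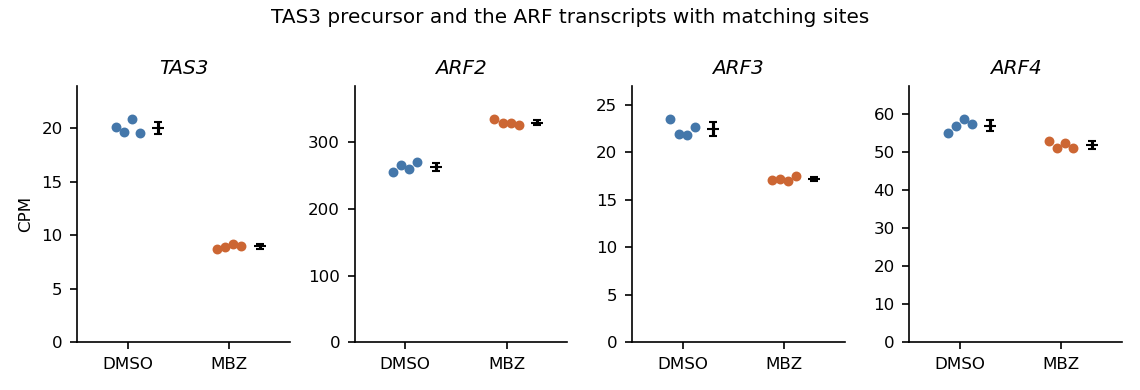
CPM of TAS3, ARF2, ARF3 and ARF4 in each library (points, DMSO left and MBZ right, each y axis from 0), with the group mean and SD in black. TAS3 falls to 8.70 to 9.22 CPM from 19.5 to 20.8, while ARF2 is higher and ARF3 and ARF4 are lower in MBZ.

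ARF10, ARF16 and ARF17 are targets of miR160 and ARF6 and ARF8 of miR167, and the microRNAs are shown with their seeds (bases 2 to 8) in capitals and the sites with bases that form no Watson-Crick pair in capitals. The miR160 family shares 1 sequence and miR167a and miR167b share another (RefSeq, TAIR10.1).
ath-miR160a-5p: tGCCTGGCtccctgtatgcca
ARF10 site: AggAatacagggagccaggca
ARF16 site: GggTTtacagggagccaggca
ARF17 site: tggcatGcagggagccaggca
ath-miR167a-5p: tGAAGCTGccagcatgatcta
ARF6 site: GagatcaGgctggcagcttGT
ARF8 site: tagatcaGgctggcagcttGT

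The miR160 sites lie at chr2:12115741-12115761 (plus) in ARF10, chr4:14704141-14704161 (minus) in ARF16 and chr1:29274189-29274209 (plus) in ARF17, and the miR167 sites at chr1:10686478-10686498 (minus) in ARF6 and chr5:14633841-14633861 (plus) in ARF8. ARF16, which acts with ARF10 in root cap development, rose from 47.2 ± 1.43 to 58.4 ± 1.49 CPM (log2 fold change 0.31 ± 0.03 SE, adjusted p = 1.35e-17), ARF10 rose less, from 39.1 ± 1.04 to 43.3 ± 0.996 CPM (log2 fold change 0.15 ± 0.03 SE, adjusted p = 1.07e-05), and ARF17 did not pass (0.07, adjusted p = 0.138). The summed RPKM of the 3 genes was 46.4 in DMSO and 53.0 in MBZ. Of 10 microRNA and TAS precursor genes examined, 2 were tested: TAS3 fell and the MIR160C precursor did not pass (0.36, adjusted p = 0.327), while 8 were too rare. ARF20 (AT1G35240), of the ARF12 clade, had 7.34, 7.16, 7.44 and 7.20 CPM in the DMSO libraries and 15.1, 14.7, 14.8 and 14.4 CPM in the MBZ libraries and was 2.02-fold higher (log2 fold change 1.02 ± 0.06, SE, adjusted p = 7.7e-30). It shares 33.2% of its 50-base words with 6 relatives of that clade, and how reads were divided among them is not known; its other 7 clade members were too rare to test.

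The levels of closely related members were also compared with each other. For 15 pairs in which both members could be tested, the log2 ratio of their CPM (with 0.5 CPM added to each) was compared between groups by a two-sided exact permutation test, which with 4 against 4 libraries cannot go below p = 0.0286. In 14 of the 15 pairs (93.3%) the ratios of the groups did not overlap, each with an exact permutation p of 0.0286 and an adjusted p of 0.0306. Since 59.0% of single genes already did not overlap between groups, and no other gene pairs were compared, the count says nothing particular to related members. The largest shift was in IAA3 against IAA4, 1.18 lower in MBZ. IAA8 against IAA9 shifted by -0.64, IAA20 against IAA30 by -0.52 and IAA16 against IAA17 by -0.39. IAA20 is near the floor, with means of 0.33 CPM in DMSO and 0.39 CPM in MBZ, below the 0.5 CPM added. It did not pass by itself, and its pair has no RPKM ratio. Among ARFs, ARF7 against ARF19 went from a log2 ratio of 0.86 ± 0.06 to 0.27 ± 0.05 (SD, n = 4 each), a shift of -0.59, and ARF11 against ARF18 shifted by 0.59. IAA6 against IAA19 was the pair whose ratios overlapped (0.38 higher in MBZ, exact permutation p = 0.143). Each library's ratio shares its 2 genes and the pairs were chosen with earlier results of these data known.

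**Figure D4:**
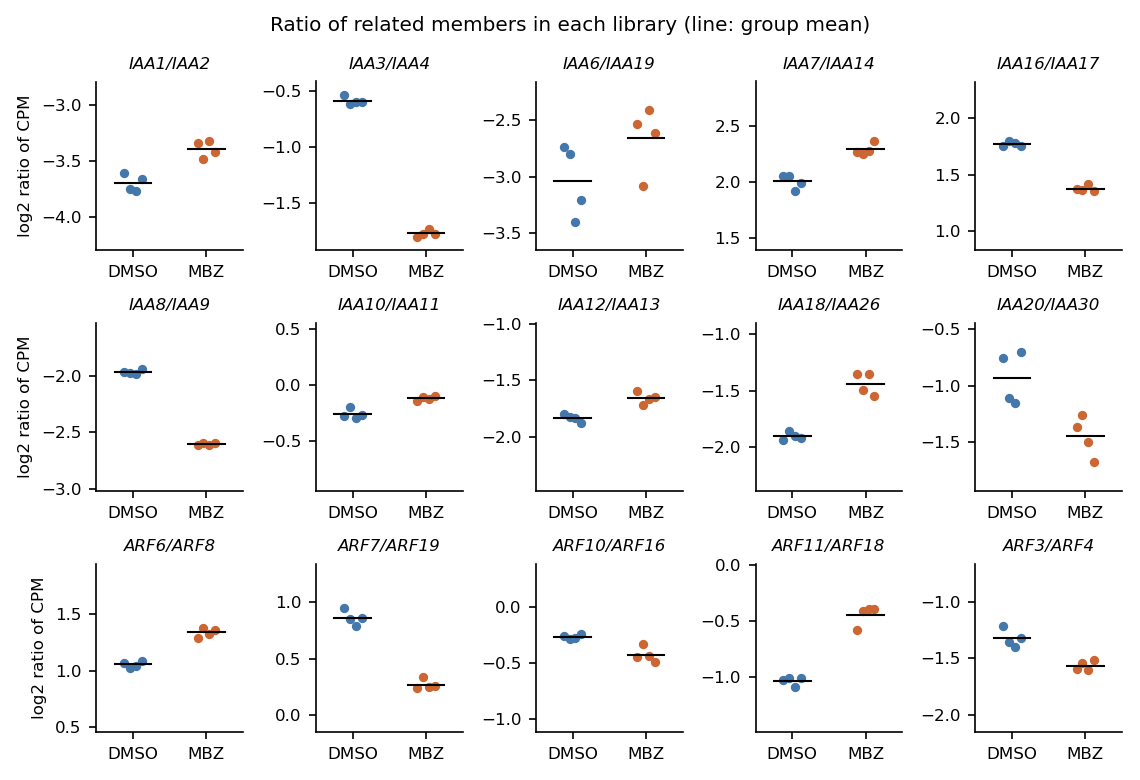
Log2 ratio of CPM within each pair of related members (y axis) in each library (points, DMSO and MBZ), with the group mean as a line. IAA3 over IAA4 shows the largest shift, -1.18, and the ARF7 over ARF19 ratio goes from 0.86 to 0.27.

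Counts for the partners of the families are small and are to be set beside the 66.5% of all genes called, 32.9% higher and 33.6% lower. Of 6 TIR1/AFB receptor genes 5 passed, 2 higher and 3 lower, a share near that background, with log2 fold changes from -0.28 (TIR1, the founding receptor, from 92.4 to 76.1 CPM) to 0.19 (AFB3). All 5 corepressors of the TOPLESS family passed, 4 higher and 1 lower, with TPL at 0.33 and TPR4 at -0.28. Of 8 genes for the SCF ubiquitin ligase and its regulation, 7 passed, all higher, by 0.05 to 0.30. The ligase subunits ASK1, CUL1 and RBX1 rose by 0.15, 0.17 and 0.12. Among genes that activate or assist the ligase, SGT1B rose by 0.30, ECR1 by 0.29 and RCE1 by 0.05, and AXR1 passed at 0.06 with overlapping groups (adjusted p = 0.0435). CAND1, which exchanges its F-box subunits, did not pass (-0.04).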

How the data were processed

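Root RNA was sequenced in 4 DMSO and 4 MBZ libraries, grouped by title. Per the submitters' processing notes, STAR 2.7.0a, edgeR 3.36.0 and the TAIR10 build were used. The counting program, annotation and strand setting are not given in the sources used here. The authors deposited raw read counts for 33602 genes and RPKM values for 17872 of them. No column lacked a sample. The members and gene lists were chosen with earlier results of these data known. Genes were named per library if past the threshold with a log2 fold change of 0.5 or more in size and a mean of at least 1 CPM, or if among the 3 most abundant of a family. Outside that rule, and after their values were seen, IAA5, IAA15, IAA32, IAA33, IAA34, ARF3, ARF4 and ARF7 are also given by library or by range.

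Counts were tested with the quasi-likelihood test of edgeR (version 4.0.16, R 4.3.3, TMM factors, filterByExpr, group only), adjusted by the Benjamini-Hochberg method over 20867 genes. CPM used TMM factors (0.994 to 1.009). The common biological coefficient of variation was 1.91%. The standard error (SE) is the log2 fold change divided by the square root of F. Alternatives used DESeq2 1.42.0, limma 3.58.1, other factors and filters, a replicate block and leaving out each library. Sequences came from RefSeq (TAIR10.1). Protein sequences were not used here, so the degron was searched as codons, and the EAR motif and protein identity were not examined. Small RNA sites were searched with a pairing penalty of at most 4, counting a wobble pair as 0.5.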

Additional observations from a re-analysis of the deposited data

Results flagged for a closer look

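In 5 of 84 groups of 4 libraries (5.95%), 1 library stood apart from the other 3 by Dixon's ratio of its gap to the whole range, and chance alone flags about 5%. IAA3 in DMSO had a ratio of 0.849, with replicate 3 at 45.13 CPM and the others at 43.98 to 44.16. IAA9 in MBZ had 0.890, with replicate 2 at 598 CPM against 606 to 607. IAA27 in MBZ had 0.922, with replicate 3 at 51.46 CPM against 55.16 to 55.47. ARF1 in DMSO had 0.834, with replicate 1 at 63.58 CPM against 67.34 to 68.08, and ARF16 in MBZ had 0.843, with replicate 2 at 56.18 CPM against 58.95 to 59.46. In each of these, the gap is small beside the difference between groups, except for IAA27, whose groups overlap.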

How the results depend on the processing

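No count, median or member fold change reversed in direction under any alternative run. Testing against a 1.5-fold change gave the main changes: 7 Aux/IAA genes past the threshold (25 in the main test), 6 higher (21) and 1 lower (4), 1 ARF gene past it (13), 1 higher (8) and 0 lower (5), 3 auxin pathway genes (23) and 2564 of all genes (13877). Tests on RPKM, which hold 20 of the 29 Aux/IAA genes, gave 13 higher (21) in each of the 3 settings, with medians of 0.348, 0.351 and 0.348 against 0.47, and a filter at a mean of 50 counts gave a median of 0.43. The construction of those settings leaves out rare members. Leaving out 1 library gave 23 to 25 Aux/IAA genes (19 to 21 higher), 13 to 14 ARF genes (8 to 9 higher), 20 to 23 pathway genes, and 14 to 15 pairs whose ratios did not overlap. ARF17 passed without MBZ replicate 4 (adjusted p = 0.0374, up to 1 elsewhere) and ARF8 under upper-quartile factors (adjusted p = 0.0253, up to 1 elsewhere). IAA26 lost its call in 11 of 19 settings and IAA27 in 10. The same replicate numbers did not deviate together (mean correlation of -0.0136, against 0.0045 for other numbers), and no library correlated best with its own number. With the replicate block, 25 Aux/IAA and 13 ARF genes passed, the same counts as without it, and 13786 of all genes. Scaling moved the median of all genes by at most 0.029 on the log2 scale. IAA15 and IAA32 had too few counts to be tested, and for IAA32 the part of depth and of its overlap with AT2G01210 was not tested.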
